A study of Arabidopsis thaliana with 40 samples.

Results

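The mutant lines cyp20-3 and oastlB of Arabidopsis thaliana were set directly against each other in high light: cyp20-3, a line labelled for the stromal cyclophilin CYP20-3, and oastlB, a line labelled for the plastid O-acetylserine(thiol)lyase. The arrays were chosen by their titles. They are 8 of the 40 arrays of the series, 4 of cyp20-3 and 4 of oastlB, from plants put for 6 h under a photon flux of 800 µmol m-2 s-1 (high light). The 8 arrays of both lines that stayed at 80 µmol m-2 s-1 (normal light) and the 4 wild-type (WT) arrays in each light serve below as reference points. All plants were grown in soil with 8 h of light and 16 h of darkness a day and were harvested as shoots at 28 days, and no agent other than light was applied. The labels give 4 biological replicates a group. They do not give the alleles, the number of independent lines behind each mutant, the accession of the wild type or the hour of harvest. RNA was read on 1-colour Affymetrix arrays, and the deposited values are log2 intensities for 27826 genes, 1 probe set each.

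CYP20-3 is a peptidyl-prolyl isomerase of the chloroplast stroma, known for binding the serine acetyltransferase SERAT2;1 and the jasmonate precursor 12-oxo-phytodienoic acid, and so for linking that precursor to the assembly of the cysteine synthase complex. O-acetylserine(thiol)lyase B, encoded by OASB, is the other enzyme of that complex in plastids and makes cysteine from O-acetylserine and sulfide. In leaves, strong light is known to raise peroxide production in chloroplasts, to induce heat shock proteins and to switch on anthocyanin synthesis. Differences are given below as cyp20-3 minus oastlB in log2 units ± standard error of the limma fit, so that a positive value means a higher level in cyp20-3. A gene is called at a Benjamini-Hochberg adjusted p under 0.05 over all genes.

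The arrays of the 2 lines in high light correlated across genes with r between 0.982 and 0.988, those within cyp20-3 with r from 0.991 to 0.992 and those within oastlB with r from 0.984 to 0.991. oastlB replicates 2 and 4 stood apart from the other 6 arrays. On the second principal component of these 8 arrays, which carried 17.5% of their variance, they lay at 35.9 and -34.7 and the others between -4.05 and 2.05. Counts of the high-light comparison that moved by over 1.5 times without both are given below with and without them. None of the root, flower, guard and myrosin cell, dividing cell or green leaf marker genes was called. Nearest to a call were CDKB2;1 (dividing cell, 0.62 ± 0.19, adjusted p = 0.053) and KAT1 (guard cell, 0.31 ± 0.11, adjusted p = 0.087), both with values that did not overlap. In the other marker lists the smallest p belonged to CAB1 (leaf, -0.15, adjusted p = 0.31), PYK10 (root, -0.31, adjusted p = 0.48) and AP3 (flower, 0.20, adjusted p = 0.62). The mean of the 6 leaf markers lay between 11.3 and 11.4 in both lines. Among them RBCS1A was at 13.8 in each line, and LHCB2.1 was lowest, at 5.85 in cyp20-3 and 6.09 in oastlB. The mean of the 7 flower markers lay between 2.15 and 2.39. The 8 root markers averaged between 2.89 and 3.09, among which the beta-glucosidase gene PYK10 was at 7.85 and 8.17 in the respective lines.

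In high light, 1542 of the 27826 genes (5.54%) were called between the lines. Of these, 833 (2.99%) were higher in cyp20-3 and 709 (2.55%) were higher in oastlB. Counts of list members called between the lines in high light, given below, are to be read beside these shares. The call counted 191 genes that differed at least 2-fold, 130 of them higher in cyp20-3 and 61 higher in oastlB. Across all genes, 3190 (11.5%) had 4 against 4 values that did not overlap, and 1326 of the called genes were among them. A fit on the 8 arrays alone called 779 genes, and a fit without oastlB replicates 2 and 4 called 624 (370 higher in cyp20-3, 254 higher in oastlB). Without cyp20-3 replicate 2 the count was 1027, with 552 higher in cyp20-3.

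In normal light the same comparison called 114 genes (0.41%), 61 higher in cyp20-3 (0.219%) and 53 higher in oastlB (0.19%). List counts in normal light are to be read beside these shares. Leaving out any of the 8 normal-light arrays reduced the count of 114 to between 36 and 72, and the fit on these 8 arrays alone called 4. Of the genes called in each light, 24 were shared, which is 1.56% of the high-light calls and 21.1% of the normal-light calls, and 23 of them had the same direction. The test of whether the lines responded differently to high light called 637 genes (2.29%), with 369 positive (1.33%) and 268 negative (0.963%). It shares the high-light arrays with the main comparison, so its values are set beside it and not counted as a second observation. Against WT in high light, 622 genes (2.24%) were called in cyp20-3 and 238 (0.855%) in oastlB. In cyp20-3, 392 (1.41%) were above and 230 (0.827%) below WT, and in oastlB 125 (0.449%) and 113 (0.406%). List counts against WT are to be read beside these shares. The contrasts against WT share the WT arrays and are given below gene by gene.

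**Figure D1:**
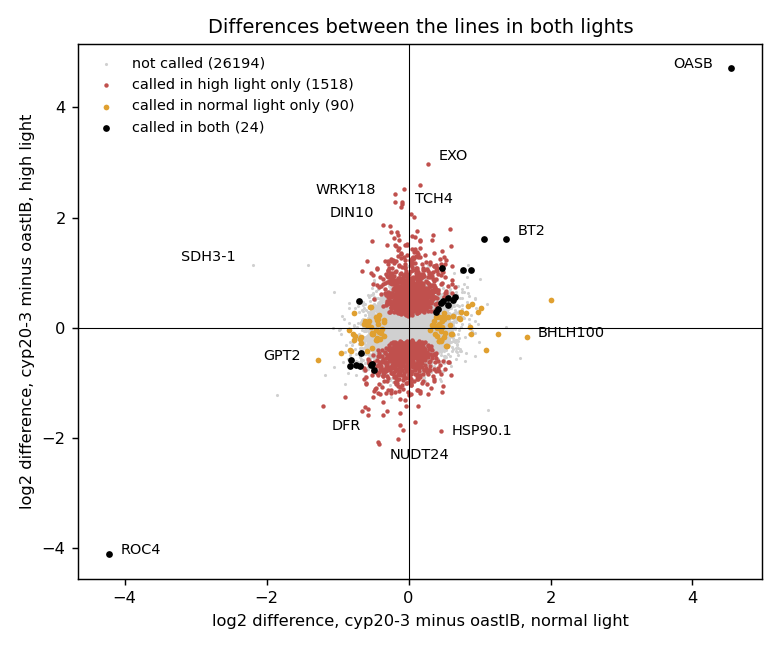
Each point is a gene, plotted by its log2 difference between cyp20-3 and oastlB in normal light (horizontal) and in high light (vertical), and coloured by the light in which it was called. Apart from the targeted genes OASB and CYP20-3 (labelled ROC4), most genes with large differences in high light lie near 0 on the horizontal axis, and 24 genes were called in both lights.

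The targeted transcripts followed the labels on every array. CYP20-3 (AT3G62030, listed as ROC4) read 6.73, 6.41, 6.77 and 5.97 in cyp20-3 and 10.46, 10.74, 10.55 and 10.57 in oastlB, a difference of -4.11 ± 0.11 (adjusted p = 3.1e-24). OASB (AT2G43750) read 8.96, 8.97, 8.99 and 8.93 in cyp20-3 and 4.34, 4.67, 4.57 and 3.44 in oastlB, a difference of 4.71 ± 0.14 (adjusted p = 8.7e-24). Neither pair of groups overlapped, and in normal light the differences were -4.21 and 4.55. AT3G62040, the locus next to CYP20-3, was picked out after its values were seen. It read 5.97, 5.66, 5.74 and 5.02 in cyp20-3 against 4.39, 3.91, 3.82 and 3.81 in oastlB (1.61 ± 0.19, adjusted p = 3.6e-07). It was also called in normal light (1.06 ± 0.19, adjusted p = 0.0053), and in high light it was above WT in cyp20-3 (1.32, adjusted p = 2.7e-05) and was not called in oastlB (-0.29, adjusted p = 0.53). Among the 225 genes within 1000 locus numbers of CYP20-3, 12 (5.33%) were called, and among the 227 around OASB, 10 (4.41%). Both shares lie below the 5.54% called over all genes.

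Of 13 cysteine synthesis genes, 2 were called, OASB and the mitochondrial serine acetyltransferase gene SERAT2;2 (AT3G13110). SERAT2;2 read 5.27, 5.23, 5.11 and 5.39 in cyp20-3 and 5.54, 5.56, 5.64 and 5.62 in oastlB, a gap of -0.34 ± 0.10 (adjusted p = 0.046) that was lost on leaving out 7 of the 8 arrays (adjusted p up to 0.15). The cytosolic and mitochondrial lyase genes OASA1 and OASC differed by -0.02 and 0.26 (adjusted p = 0.94 and 0.35), and the plastid acetyltransferase gene SERAT2;1 by -0.38 (adjusted p = 0.11). The largest difference that was not called was that of the cysteine desulfhydrase gene DES1 (AT5G28030), at -0.65 ± 0.20 (adjusted p = 0.057), with 3.72, 3.64, 4.40 and 3.79 in cyp20-3 overlapping 4.53, 4.45, 4.27 and 4.88 in oastlB. CS26 (AT3G03630), the plastid S-sulfocysteine synthase gene, was not called either, at 0.32 ± 0.11 (adjusted p = 0.07), and its values overlapped. None of the 18 sulfate uptake and reduction genes and none of the 9 glutathione genes was called. The medians of these lists were -0.05 and 0.13, beside -0.01 over all genes. Their smallest p values were those of SULTR4;2 (AT3G12520, -0.31 ± 0.15, adjusted p = 0.28) and CAD1 (AT5G44070, 0.30 ± 0.11, adjusted p = 0.12). The values of CAD1 did not overlap. In high light SULTR4;2 was above WT in oastlB (0.63, adjusted p = 0.038) and not called in cyp20-3 (0.32, adjusted p = 0.49). Among 10 sulfur starvation genes, ATSDI1 (AT5G48850, sulphur deficiency-induced) was called at 1.05 ± 0.26 (adjusted p = 0.011), with 4.68, 5.26, 4.74 and 4.48 in cyp20-3 above 3.97, 3.88, 3.73 and 3.38 in oastlB. Its call did not hold without cyp20-3 replicate 2 or without oastlB replicate 4 (adjusted p up to 0.065). Of 15 cyclophilin genes, Pnsl5 (AT5G13120, the lumenal CYP20-2) was called besides CYP20-3, by 0.21 ± 0.06 (adjusted p = 0.03), and it lost its call without any of 6 arrays. Without oastlB replicates 2 and 4 together, SERAT2;2, ATSDI1 and Pnsl5 were not called, and OASB and CYP20-3 were.

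Several of the largest differences in favour of cyp20-3 were in genes for wall proteins, which were picked by size and not as a group. EXO (AT4G08950), encoding the growth-related extracellular protein EXORDIUM, read 6.25, 6.36, 5.95 and 6.38 in cyp20-3 and 3.35, 2.77, 3.71 and 3.18 in oastlB. That is 2.98 ± 0.24, or 7.9-fold (adjusted p = 1.5e-10). Both lines stood low in normal light, at 3.00 ± 0.29 and 2.73 ± 0.29 (SD, n = 4), so that the response differed by 2.71 ± 0.34 (adjusted p = 4.4e-06). TCH4 (AT5G57560), a touch-induced xyloglucan endotransglucosylase, read 8.07, 8.62, 8.51 and 8.45 against 5.87, 6.18, 5.85 and 5.65 (2.52 ± 0.20, adjusted p = 7.6e-11). EXLA1 (AT3G45970), an expansin-like protein, read 6.18, 6.69, 6.24 and 6.71 against 4.28, 4.20, 4.30 and 4.04 (2.25 ± 0.21, adjusted p = 5.6e-09). In all 3 the lowest cyp20-3 array stood well above the highest oastlB array, and normal-light differences lay between -0.09 and 0.27.

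The pectin methylesterase gene ATPMEPCRB (AT4G02330, PME41) read 6.72, 6.83, 7.14 and 6.85 in cyp20-3 against 5.01, 4.96, 5.08 and 5.32 in oastlB (1.79 ± 0.17, adjusted p = 4.3e-09). XTH33 (AT1G10550), of the same enzyme family as TCH4, differed by 1.68 ± 0.23 (adjusted p = 4.2e-06). Among genes picked out after their values were seen, the leucine-rich extensin gene LRX3 (AT4G13340) differed by 1.75 ± 0.17, the EXORDIUM-like genes EXL3 (AT5G51550) and EXL5 (AT2G17230) by 1.51 ± 0.14 and 1.44 ± 0.15, and the arabinogalactan protein gene AGP16 (AT2G46330) by 1.50 ± 0.12. EXO was 2.31 above WT in cyp20-3 (adjusted p = 6.3e-08) and -0.67 from WT in oastlB (adjusted p = 0.18), and TCH4 2.32 (adjusted p = 1.3e-09) and -0.20 (adjusted p = 0.71). AGP16 differed from WT in both lines, by 0.78 in cyp20-3 (adjusted p = 3.7e-05) and by -0.72 in oastlB (adjusted p = 0.0011).

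The list of 12 touch and cell wall growth genes did not move as a block. TCH4, XTH33 and the calmodulin-like gene TCH3 (AT2G41100, 1.03 ± 0.21, adjusted p = 0.0018) were higher in cyp20-3, whereas the expansin genes EXPA10 (AT1G26770, -0.44 ± 0.13, adjusted p = 0.04) and EXPA11 (AT1G20190, -0.47 ± 0.12, adjusted p = 0.012) were higher in oastlB, and the median was -0.14. Set against WT in high light, 3 of the 12 were higher and 5 lower in cyp20-3, beside 1.41% and 0.827% of all genes. TCH4, XTH33 and TCH3 kept their calls on leaving out any of the 8 arrays, whereas EXPA10 lost its call without any of 5 arrays, and EXPA11 without cyp20-3 replicate 4 or oastlB replicate 4 (adjusted p up to 0.22 and 0.072). Without oastlB replicates 2 and 4, the count was 3 higher in cyp20-3 and 1 higher in oastlB.

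**Figure D2:**
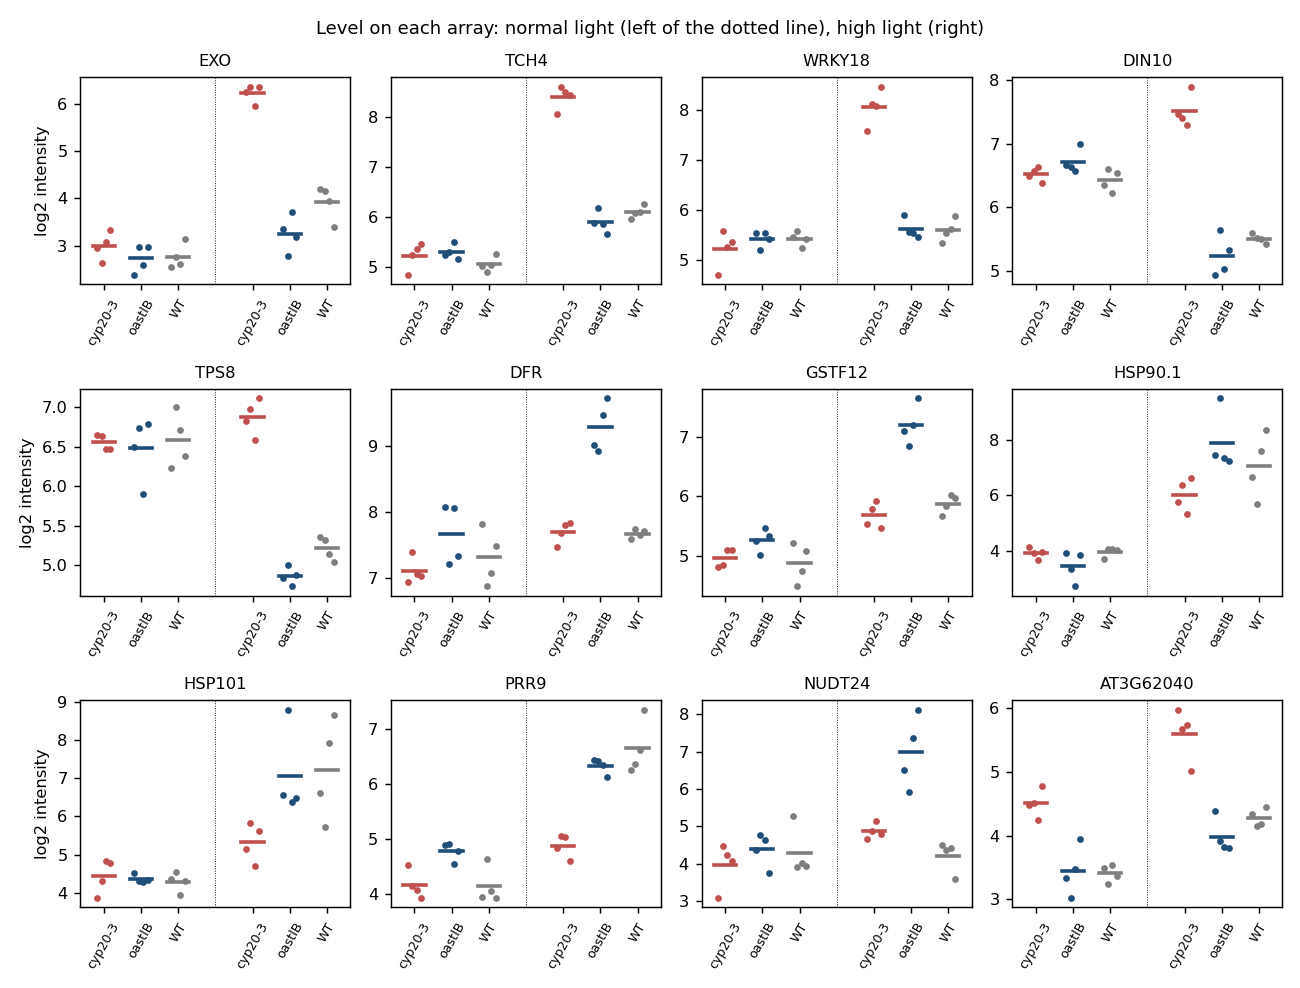
Each panel shows the log2 intensity of 1 gene on each array of cyp20-3, oastlB and WT, in normal light left of the dotted line and in high light right of it, with a bar at the group mean (4 arrays a group). EXO, TCH4, WRKY18, DIN10 and TPS8 stand higher in cyp20-3 than in both other groups in high light, DFR and GSTF12 stand higher in oastlB, and 1 oastlB array lies far above the others for HSP90.1 and HSP101.

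Several transcription factors and signalling genes followed the same pattern. WRKY18 (AT4G31800), a regulator of immune responses, read 7.57, 8.11, 8.07 and 8.46 in cyp20-3 and 5.89, 5.57, 5.54 and 5.47 in oastlB. The gap was 2.44 ± 0.23 (5.42-fold, adjusted p = 4.5e-09) and -0.19 ± 0.23 in normal light, and WT in high light averaged 5.59, near oastlB. DREB26 (AT1G21910), an AP2/ERF factor, read 5.67, 6.20, 5.67 and 6.44 against 3.16, 3.42, 3.35 and 3.69 (2.59 ± 0.24, adjusted p = 2.9e-09). SLAH3 (AT5G24030), an anion channel, read 8.45, 9.34, 9.29 and 9.22 against 6.89, 7.25, 7.03 and 6.33 (2.20 ± 0.19, adjusted p = 5.8e-10). None of these groups overlapped. AT5G61590 (Decrease Wax Biosynthesis), an ERF factor, was higher in cyp20-3 by 1.85 ± 0.17 (adjusted p = 4.4e-09). In this gene high light separated the lines from the other side: cyp20-3 averaged 6.51 in normal light and 6.57, 6.78, 6.39 and 6.82 in high light, while oastlB averaged 6.77 in normal light and 5.04, 4.33, 5.22 and 4.56 in high light.

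The median of the 24 salicylate and immune response genes was 0.28 in each light, and none was called in normal light. In high light 4 were called, all higher in cyp20-3, beside 2.99% of all genes. Besides WRKY18 they were WRKY70 (AT3G56400, 1.09 ± 0.17, adjusted p = 4.9e-05) and WRKY54 (AT2G40750, 1.06 ± 0.17, adjusted p = 4.9e-05), a related pair of immune regulators, and WRKY38 (AT5G22570, 0.66 ± 0.18, adjusted p = 0.026). WRKY70 read 8.73, 9.11, 8.75 and 9.11 in cyp20-3 and 8.20, 7.61, 7.85 and 7.65 in oastlB, without overlap, and WT averaged 8.33, between the lines. The salicylate output gene PR1 was not called, at 0.71 ± 0.89 (adjusted p = 0.75). Of these 4 genes WRKY18 was the 1 with a called difference in response.

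Several genes known to be induced by darkness or low sugar stood higher in cyp20-3. Of 18 such genes, 6 were called higher in cyp20-3 and 2 higher in oastlB, beside 2.99% and 2.55% of all genes. The median was 0.13. DIN10 (AT5G20250), of the raffinose synthase family, read 7.47, 7.41, 7.30 and 7.89 in cyp20-3 and 4.94, 5.64, 5.04 and 5.33 in oastlB (2.28 ± 0.20, adjusted p = 1.2e-09). TPS8 (AT1G70290), a class II trehalose-phosphate synthase, read 6.82, 6.97, 6.59 and 7.11 against 4.84, 4.997, 4.73 and 4.87 (2.01 ± 0.18, adjusted p = 2.0e-09). The groups were far apart in both genes. In normal light DIN10 averaged 6.52 and 6.71 and TPS8 6.55 and 6.48 in cyp20-3 and oastlB, so that oastlB was lower in high than in normal light and cyp20-3 was not. WT was lower in high light as well, at 5.51 against 6.43 for DIN10 and 5.22 against 6.58 for TPS8. Against WT in high light, cyp20-3 was at 2.01 and 1.66 (adjusted p = 2.8e-08 and 1.9e-07). oastlB, at -0.27 and -0.36, was not called against WT.

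TPS11 (AT2G18700), of the same class as TPS8, differed by 1.60 ± 0.24 (adjusted p = 3.0e-05), AKINBETA1 (AT5G21170), a subunit of the energy-sensing SnRK1 kinase, by 0.76 ± 0.11 (adjusted p = 1.3e-05) and the transcription factor bZIP1 (AT5G49450) by 0.57 ± 0.14 (adjusted p = 0.013). BT2 (AT3G48360), a BTB and TAZ domain protein, read 5.45, 5.74, 5.48 and 6.86 against 4.17, 4.47, 4.27 and 4.17 (1.61 ± 0.29, adjusted p = 0.00032). It differed in normal light too (1.38 ± 0.29, adjusted p = 0.022), with 7.12 ± 0.18 in cyp20-3 and 5.74 ± 0.12 in oastlB, and its response was not called. Higher in oastlB were TPS5 (AT4G17770, -0.72 ± 0.12, adjusted p = 0.00012) and the branched-chain aminotransferase gene BCAT-2 (AT1G10070, -0.83 ± 0.22, adjusted p = 0.019). BCAT-2 values overlapped, since oastlB replicate 2 read 3.72 and the others 4.96, 5.07 and 4.86, and its call was lost without any of 5 arrays. The call of BT2 in normal light was likewise lost without any of 5 arrays (adjusted p up to 0.082). AT1G80440 (Kelch repeat F-box 20) was higher in cyp20-3 by 1.76 ± 0.21 (adjusted p = 4.9e-07).

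Jasmonate genes were chosen for a list because CYP20-3 is known to bind the jasmonate precursor. Jasmonate acts by removing JAZ repressors, whose own genes are induced as a feedback, and MYC2 is the transcription factor they hold back. Of the 11 genes of the list, JAZ repressors and MYC2, 5 were higher in cyp20-3, 1 was higher in oastlB and the median was 0.49. Over all genes the shares were 2.99% and 2.55%. JAZ7 (AT2G34600) read 4.12, 4.08, 3.00 and 3.79 in cyp20-3 and 1.99, 1.82, 2.81 and 2.32 in oastlB (1.51 ± 0.24, adjusted p = 4.6e-05). JAZ10 (AT5G13220) read 5.13, 4.64, 4.79 and 5.03 against 3.76, 3.61, 3.80 and 3.87 (1.14 ± 0.28, adjusted p = 0.01). Neither overlapped, and the others called were JAZ8 (0.74 ± 0.23), JAZ6 (0.70 ± 0.13) and JAZ5 (0.60 ± 0.18). MYC2 (AT1G32640) itself went the other way, with 5.93, 5.55, 5.60 and 5.59 in cyp20-3 and 6.35, 6.46, 5.87 and 6.52 in oastlB (-0.63 ± 0.14, adjusted p = 0.005), and these values overlapped. The difference in response was called for 3 of the 11 and had both signs: JAZ7 was at 1.53 ± 0.34, MYC2 at -0.79 ± 0.20 and JAZ12 (AT5G20900) at -0.41 ± 0.11 (adjusted p = 0.0074, 0.029 and 0.046).

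Fewer genes of synthesis and breakdown were called. Of 13 synthesis genes the lipoxygenase gene LOX4 (AT1G72520) was called, with 7.83, 7.87, 7.64 and 8.03 in cyp20-3 above 7.10, 7.13, 7.02 and 6.94 in oastlB (0.80 ± 0.18, adjusted p = 0.0055). JAR1 (AT2G46370), which conjugates jasmonate to isoleucine, was not called in high light (-0.24 ± 0.08, adjusted p = 0.064) but differed in response by -0.49 ± 0.11 (adjusted p = 0.0098). Of 12 turnover and output genes, AT5G05600 (1.05 ± 0.23, adjusted p = 0.0041) and CYP94C1 (AT2G27690, 0.84 ± 0.18, adjusted p = 0.0024), a cytochrome P450 that oxidises jasmonoyl-isoleucine, were higher in cyp20-3. No jasmonate gene of these 3 lists was called in normal light. In oastlB none of them was called against WT in high light. In cyp20-3, 6 of the 11 genes of the first list, all of them repressors, were above WT, beside 1.41% of all genes. So were 2 of the 13 synthesis genes and 2 of the 12 turnover and output genes. The number of repressor genes higher in cyp20-3 was 3 in the fit on the 8 arrays alone, 3 without any one of cyp20-3 replicates 1, 2 and 4 or oastlB replicates 2, 3 and 4, and 2 without oastlB replicates 2 and 4 together. Without these 2 arrays, MYC2 and the called synthesis and turnover genes were not called.

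**Figure D3:**
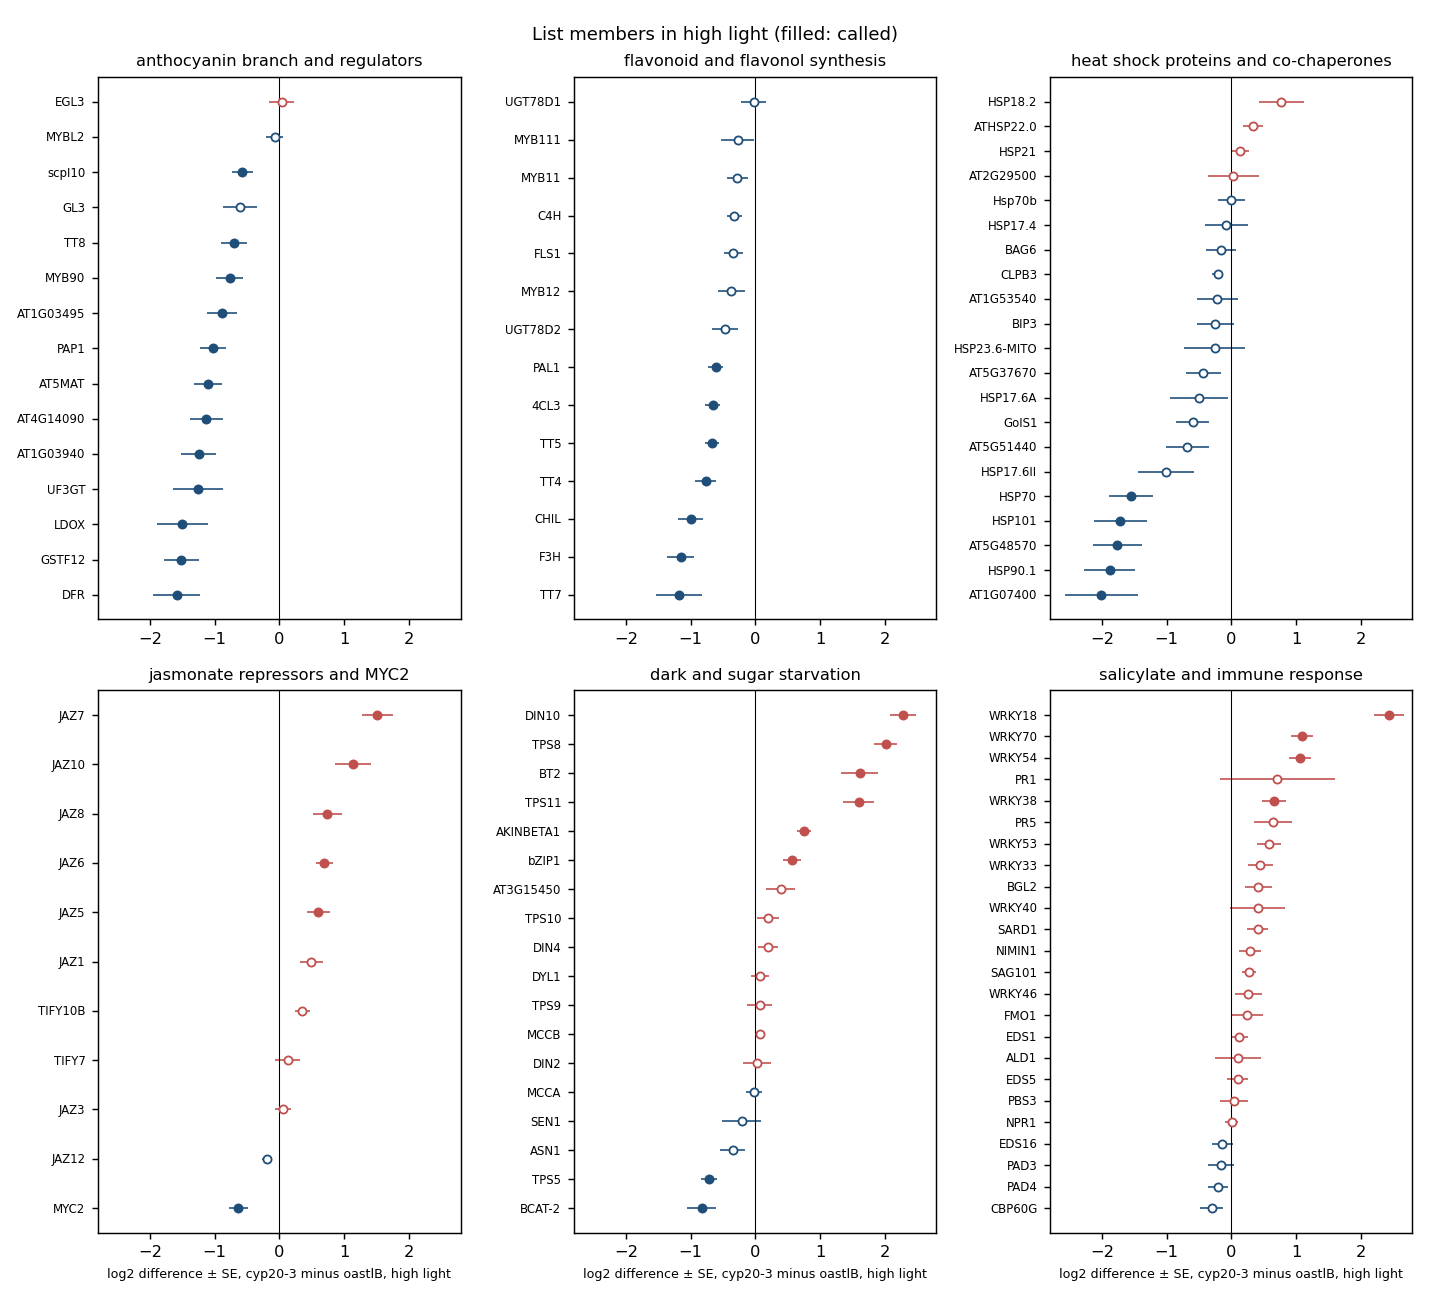
Points show the log2 difference in high light, cyp20-3 minus oastlB, of each member of 6 gene lists, with bars of 1 standard error, filled where the gene was called. The anthocyanin and flavonoid members lie left of 0 apart from EGL3, whereas members of the starvation list, the jasmonate list and the heat shock list lie on both sides.

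Anthocyanin genes were the group with the largest share of members called, all of them higher in oastlB. Of 15 genes of the late anthocyanin branch and its regulators, 12 were called, and the median was -1.03. DFR (AT5G42800), dihydroflavonol reductase, read 7.47, 7.69, 7.81 and 7.83 in cyp20-3 and 9.02, 8.93, 9.47 and 9.73 in oastlB (-1.59 ± 0.37, adjusted p = 0.006). GSTF12 (AT5G17220), needed for anthocyanin transport to the vacuole, read 5.54, 5.79, 5.93 and 5.47 against 7.09, 6.85, 7.20 and 7.65 (-1.52 ± 0.27, adjusted p = 0.0003). LDOX (AT4G22880), anthocyanidin synthase, read 5.19, 5.74, 5.57 and 5.52 against 6.79, 6.64, 7.21 and 7.38 (-1.50 ± 0.40, adjusted p = 0.017). The groups stood about 1 log2 unit apart at their nearest values in all 3.

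The decorating enzymes UF3GT (AT5G54060), AT1G03940, AT4G14090 and AT5MAT (AT3G29590) differed by -1.26, -1.25, -1.13 and -1.10. Among the regulators, PAP1 (AT1G56650), the MYB activator of the branch, differed by -1.03 ± 0.21 (adjusted p = 0.0012), MYB90 (AT1G66390), its close relative, by -0.77 ± 0.21 (adjusted p = 0.019) and the bHLH factor TT8 (AT4G09820) by -0.70 ± 0.20 (adjusted p = 0.032). The bHLH factors EGL3 and GL3 and the repressor MYBL2 were not called, at 0.04, -0.61 and -0.07. WT in high light lay near cyp20-3 for DFR, GSTF12 and LDOX, with averages of 7.67, 5.88 and 5.65. Against WT, DFR was at 0.03 in cyp20-3 (adjusted p = 1) and 1.62 in oastlB (adjusted p = 0.027), and GSTF12 at -0.20 (adjusted p = 0.93) and 1.32 (adjusted p = 0.011). LDOX was not called against WT in oastlB (1.35, adjusted p = 0.092). Of the 15 genes, 4 were called against WT in oastlB, all higher, beside 0.449% of all genes, and 0 in cyp20-3. PAP1 in WT, at 6.74, lay between the lines.

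Earlier steps of the flavonoid pathway showed the same direction with smaller differences. Of 14 flavonoid and flavonol genes, 7 were called, all higher in oastlB, and all 14 had a negative sign with a median of -0.54. TT7 (AT5G07990), flavonoid 3'-hydroxylase, differed by -1.18 ± 0.36 (adjusted p = 0.045), F3H (AT3G51240), flavanone 3-hydroxylase, by -1.15 ± 0.21 (adjusted p = 0.00032) and TT4 (AT5G13930), chalcone synthase, by -0.77 ± 0.17 (adjusted p = 0.0028). F3H read 5.94, 6.44, 6.18 and 6.34 in cyp20-3 and 7.14, 7.10, 7.50 and 7.77 in oastlB, without overlap. The flavonol regulators MYB11, MYB12 and MYB111 and the flavonol synthase gene FLS1 were not called.

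In normal light 1 gene of each of the anthocyanin and flavonoid lists was called, both higher in oastlB, and the medians were -0.41 and -0.29. Among the 15 anthocyanin genes the difference in response was called for MYB90 (-1.08 ± 0.29, adjusted p = 0.038), and for none of the 14 flavonoid genes. For the rest of both lists, a larger gap in high than in normal light was therefore not shown. The anthocyanin and flavonoid counts were 5 each without oastlB replicates 2 and 4 together, and the anthocyanin count was 7 without cyp20-3 replicate 1 or without oastlB replicate 4. LDOX lost its call without either of these arrays (adjusted p up to 0.068), and TT7 without any of 7 arrays (adjusted p up to 0.2).

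Of 21 heat shock proteins and co-chaperones, 5 were called, all higher in oastlB, beside 2.55% of all genes. In these 5, 1 oastlB array lay far above the rest. Of the 21, 17 had a negative and 4 a positive sign, and the median was -0.26. HSP90.1 (AT5G52640) read 5.73, 6.37, 5.32 and 6.60 in cyp20-3 and 7.45, 9.49, 7.35 and 7.24 in oastlB (-1.88 ± 0.39, adjusted p = 0.0021). HSP101 (AT1G74310), a disaggregating chaperone, read 5.15, 5.83, 4.71 and 5.62 against 6.55, 8.79, 6.37 and 6.47 (-1.72 ± 0.41, adjusted p = 0.0075). HSP70 (AT3G12580) read 8.86, 8.93, 8.01 and 9.38 against 9.77, 11.70, 10.03 and 9.89 (-1.55 ± 0.34, adjusted p = 0.0034). None of these groups overlapped, and in each gene oastlB replicate 2 stood well above the other 3 oastlB arrays.

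AT5G48570 (FKBP65), an FK506-binding co-chaperone, showed the same pattern (-1.76 ± 0.38, adjusted p = 0.0027), and so did AT1G07400 (-2.01 ± 0.56, adjusted p = 0.027), whose values overlapped. Without oastlB replicate 2, HSP90.1 was at -1.34 (adjusted p = 0.021), HSP70 at -1.10 (adjusted p = 0.033) and AT5G48570 at -1.21 (adjusted p = 0.025), while HSP101 at -1.14 (adjusted p = 0.068) and AT1G07400 at -1.12 (adjusted p = 0.19) were no longer called. In the fit on the 8 arrays alone, and without oastlB replicates 2 and 4 together, none of the 21 was called. In WT the spread was wide as well. HSP90.1, HSP70 and AT5G48570 averaged 7.06, 9.82 and 8.09 in WT, between the lines, and were not called against WT in either line. HSP101 and AT1G07400 averaged 7.23 and 6.43 in WT, above both lines. Both were below WT in cyp20-3 (-1.89 and -2.13, adjusted p = 0.005 and 0.031) and not called in oastlB (-0.18 and -0.12, adjusted p = 0.9 and 0.83).

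Among 10 heat shock factors and co-regulators, the bridging factor gene MBF1C (AT3G24500) read 5.13, 5.80, 5.85 and 5.62 in cyp20-3 and 6.40, 7.42, 6.72 and 6.68 in oastlB (-1.21 ± 0.27, adjusted p = 0.0046). HSF4 (AT4G36990), a class B heat shock factor, differed by -0.76 ± 0.16 (adjusted p = 0.0029). Neither overlapped, and neither was called without oastlB replicates 2 and 4. MBF1C averaged 7.73 in WT and was below WT in cyp20-3 (-2.13, adjusted p = 3.3e-06).

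The largest difference in favour of oastlB besides CYP20-3 was that of NUDT24 (AT5G19470), a nudix hydrolase, with 4.66, 4.87, 5.14 and 4.80 in cyp20-3 and 6.52, 5.91, 7.37 and 8.13 in oastlB (-2.12 ± 0.38, adjusted p = 0.00032). The oastlB arrays spread over more than 2 log2 units but did not reach down to cyp20-3, and WT averaged 4.21. NUDT24 was above WT in oastlB by 2.77 (adjusted p = 0.00019) and was not called in cyp20-3 (0.65, adjusted p = 0.65). Other genes of this direction were AT2G15020 (-1.59 ± 0.18, adjusted p = 2.1e-07), DIP2 (AT5G03210, -1.42 ± 0.22, adjusted p = 3.3e-05) and the B-box protein gene BBX31 (AT3G21890, -1.41 ± 0.19, adjusted p = 3.9e-06). For these 3 it was cyp20-3 that was called below WT, by -1.70, -1.36 and -0.97, and oastlB was not. AT1G34060 (-1.47 ± 0.25, adjusted p = 0.00011) and AT2G03933 (-1.41 ± 0.37, adjusted p = 0.017) were above WT in oastlB, by 1.19 and 1.54, and the second lost its call without any of 3 arrays.

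Among the largest in favour of cyp20-3 were also 3 genes for which no name was found in the reference table. AT4G16563 read 7.06, 7.88, 7.44 and 7.63 in cyp20-3 and 5.18, 5.12, 5.38 and 5.23 in oastlB (2.28 ± 0.17, adjusted p = 3.9e-11). AT1G02610 differed by 2.07 ± 0.34 (adjusted p = 8.4e-05) and AT1G50040 by 1.86 ± 0.22 (adjusted p = 4.8e-07). All 3 were near 0 in normal light, at -0.10, 0.03 and -0.35.

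Clock genes differed between the lines in both lights. No source used here gives the hour of harvest, and whether the lines were sampled at the same hour was not tested. Of 12 morning-phased genes, 5 were called in high light, all higher in oastlB, beside 2.55% of all genes. All 12 had a negative sign, with a median of -0.46. PRR9 (AT2G46790), a pseudo-response regulator, read 4.83, 5.04, 5.03 and 4.61 in cyp20-3 and 6.42, 6.41, 6.33 and 6.12 in oastlB (-1.44 ± 0.20, adjusted p = 7.3e-06). CCA1 (AT2G46830), a core MYB-like repressor, read 5.005, 4.92, 4.82 and 4.81 against 5.79, 5.69, 5.13 and 5.69 (-0.68 ± 0.15, adjusted p = 0.0043). Neither overlapped. AT5G64170 (-0.63 ± 0.09), LCL1 (AT5G02840, -0.45 ± 0.12) and CDF1 (AT5G62430, -0.40 ± 0.12) were the others called. The count was 3 without cyp20-3 replicate 2 and in the fit on the 8 arrays alone, and 2 without oastlB replicates 2 and 4.

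Of 13 evening-phased genes, 6 were higher in cyp20-3 in normal light, with a median of 0.47, and 1 in high light, with a median of 0.19. The shares over all genes were 0.219% in normal and 2.99% in high light. The normal-light count was 3 or 4 on leaving out any of the 8 arrays, and 0 in the fit on these 8 arrays alone. In normal light COR27 (AT5G42900) was at 0.89 ± 0.14 (adjusted p = 0.0013), AT4G33980 at 0.74 ± 0.12 (adjusted p = 0.0024), ELF4 (AT2G40080) at 0.72 ± 0.16 (adjusted p = 0.032) and TOC1 (AT5G61380) at 0.63 ± 0.08 (adjusted p = 1.3e-05). PCL1 (AT3G46640, the evening complex factor LUX) was called in both lights at the same size, 0.49 ± 0.11. In TOC1 the difference in response was called (-0.42 ± 0.11, adjusted p = 0.032), and for the other 12 evening genes a difference between the lights was not shown. PRR9 was below WT in cyp20-3 in high light (-1.76, adjusted p = 4.6e-07) and not called in oastlB (-0.32, adjusted p = 0.52), and PCL1 was above WT in cyp20-3 (0.54, adjusted p = 0.0037) and at 0.05 in oastlB (adjusted p = 0.9).

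**Figure D4:**
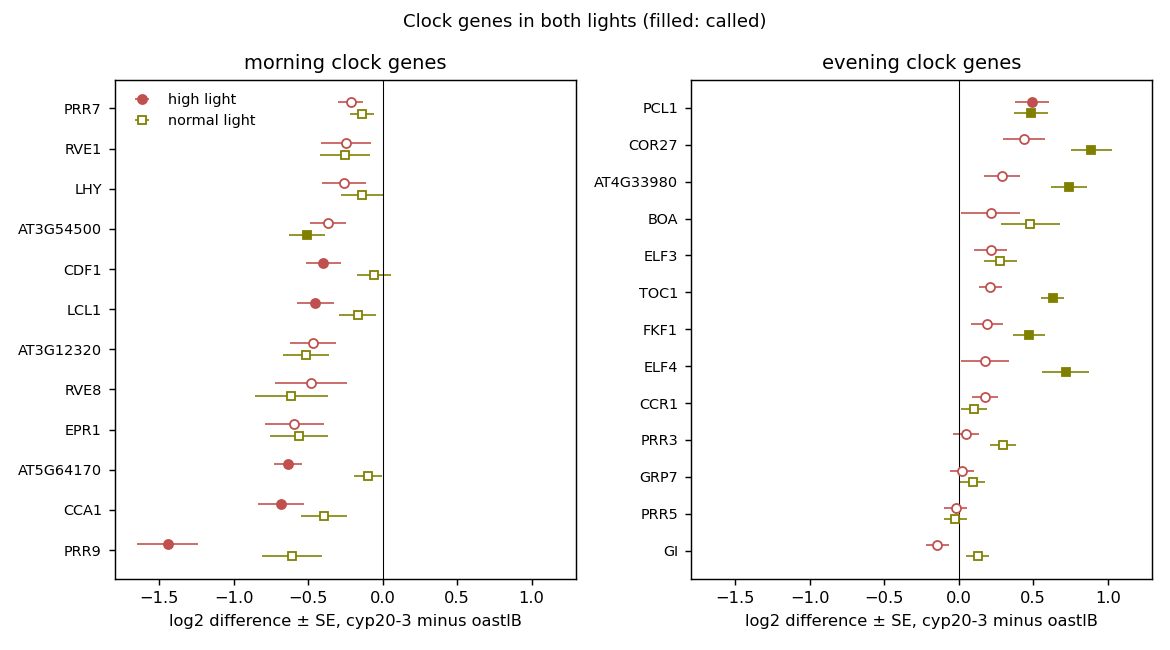
Points show the log2 difference, cyp20-3 minus oastlB, of morning (left) and evening (right) clock genes in high light (circles) and normal light (squares), with bars of 1 standard error, filled where the gene was called. The 12 morning genes lie below 0 in both lights, and 6 evening genes were called above 0 in normal light.

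Of 19 abscisic acid genes, 2 were higher in cyp20-3 and 4 higher in oastlB in high light, beside 2.99% and 2.55% of all genes. Without oastlB replicates 2 and 4 the counts were 1 and 2. The abscisic acid 8'-hydroxylase genes CYP707A3 (AT5G45340, 1.14 ± 0.27, adjusted p = 0.0061) and CYP707A1 (AT4G19230, 0.70 ± 0.20, adjusted p = 0.03), which break the hormone down, were higher in cyp20-3, with overlapping values, and CYP707A1 lost its call without any of 4 arrays. The phosphatase gene HAI2 (AT1G07430) read 4.19, 4.38, 4.13 and 4.48 in cyp20-3 and 5.21, 5.02, 5.31 and 5.53 in oastlB (-0.97 ± 0.22, adjusted p = 0.0038). The caleosin gene RD20 (AT2G33380, -0.86 ± 0.23), the homeobox gene HB-12 (AT3G61890, -0.76 ± 0.20) and the phosphatase gene ABI1 (AT4G26080, -0.48 ± 0.10) were also higher in oastlB. RD20 lost its call without cyp20-3 replicate 3 or oastlB replicate 4 (adjusted p up to 0.082).

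The difference in response was called for 4 of the 19 abscisic acid genes and for 4 of the 10 cold genes, all negative, beside 0.963% of all genes. In level, 1 of the 10 cold genes was called in high light. LTI78 (AT5G52310, also RD29A) stood at 10.03 ± 0.10 in cyp20-3 and 9.46 ± 0.23 in oastlB in normal light. In high light its order was turned, at 9.24, 9.26, 9.08 and 9.60 in cyp20-3 and 9.81, 9.64, 10.02 and 10.15 in oastlB. The high-light difference was -0.61 ± 0.14 (adjusted p = 0.0043), that in normal light 0.57 ± 0.14 (adjusted p = 0.053) and that in response -1.18 ± 0.19 (adjusted p = 0.00029). COR47, KIN2 and ERD10, further cold-induced genes, differed in response by -0.78 ± 0.20, -0.75 ± 0.16 and -0.62 ± 0.16, and ABI1 by -0.85 ± 0.14 (adjusted p = 0.00023). GolS2 (AT1G56600), a galactinol synthase, read 5.94, 6.06, 5.66 and 6.22 in cyp20-3 and 6.85, 7.08, 7.43 and 7.22 in oastlB in high light, and its response differed by -1.65 ± 0.37 (adjusted p = 0.01).

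The redox lists held few called genes each, to be read beside 5.54% of all genes. Of 26 antioxidant enzymes, 2 were called, both higher in oastlB. The cytosolic ascorbate peroxidase gene APX1 (AT1G07890) read 8.38, 8.38, 8.38 and 8.34 in cyp20-3 and 8.68, 8.92, 8.74 and 8.82 in oastlB (-0.42 ± 0.08, adjusted p = 0.00055), and the catalase gene CAT2 (AT4G35090) differed by -0.41 ± 0.13 (adjusted p = 0.048), a call lost without any of 7 arrays. Glutathione transferase genes GSTU5 (AT2G29450) and GSTF6 (AT1G02930) were higher in oastlB by -0.77 ± 0.16 (adjusted p = 0.0017) and -0.88 ± 0.22 (adjusted p = 0.011), out of 18, of which 16 had a negative sign, and GSTF6 lost its call without cyp20-3 replicate 2 (adjusted p = 0.07). Of 10 CC-type glutaredoxin genes, GRX480 (AT1G28480, 0.65 ± 0.18) and AT4G15700 (1.05 ± 0.30) were higher in cyp20-3, and lost their calls without any of 3 and 6 arrays. Among 15 plastid thioredoxin system genes ty2 (AT1G43560, thioredoxin y2) was called, at 0.27 ± 0.08 (adjusted p = 0.04), and lost it without any of 5 arrays. Without oastlB replicates 2 and 4, 1 of the 18 glutathione transferases was called and none of the antioxidant, glutaredoxin and thioredoxin genes.

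Of 20 reactive oxygen and retrograde marker genes, ELIP1 (AT3G22840), an early light-induced protein, was higher in oastlB (-0.75 ± 0.20, adjusted p = 0.021) and the calmodulin-like gene CML38 (AT1G76650) higher in cyp20-3 (1.15 ± 0.35, adjusted p = 0.043). Both overlapped and lost their calls without any of 5 arrays. Of 21 light harvesting genes, LHCA3 (AT1G61520) was called, with 10.74, 10.83, 11.06 and 11.03 in cyp20-3 below 11.23, 11.31, 11.25 and 11.28 in oastlB (-0.35 ± 0.08, adjusted p = 0.0035). PORB (AT4G27440) of 17 chlorophyll synthesis genes was higher in cyp20-3 by 0.24 ± 0.07, PSY (AT5G17230) and ABA1 (AT5G67030, zeaxanthin epoxidase) of 13 carotenoid genes, 12 of which had a negative sign, were higher in oastlB by -0.22 ± 0.07 and -0.31 ± 0.09, and RBCS2B (AT5G38420) of 18 Calvin-Benson genes was higher in cyp20-3 by 0.30 ± 0.09. These 4 calls were lost without any of between 3 and 7 arrays. Without oastlB replicates 2 and 4, 1 carotenoid gene was called and none of the reactive oxygen, light harvesting, chlorophyll and Calvin-Benson genes. No gene of 10 in photorespiration and none of the 14 plastid-encoded rows was called. Their smallest p values were those of GOX1 (AT3G14420, -0.28 ± 0.09, adjusted p = 0.069), without overlap, and ATCG01160 (0.13 ± 0.06, adjusted p = 0.26).

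Among 92 mitochondrion-encoded rows, 14 were called, all higher in cyp20-3, beside 2.99% of all genes, and the median was 0.13. The count was 1 without oastlB replicates 2 and 4 and 2 in the fit on the 8 arrays alone. It was 6, 5 and 4 without cyp20-3 replicates 1, 2 and 4, and 8 and 5 without oastlB replicates 2 and 4 in turn. The largest called, ATMG01340, read 8.58, 8.70, 8.67 and 8.49 in cyp20-3 and 7.97, 8.04, 7.96 and 7.71 in oastlB (0.69 ± 0.12, adjusted p = 0.0002), and its response differed by 0.85 ± 0.17 (adjusted p = 0.0029). ATMG00460 differed by 0.59 (adjusted p = 0.032) and lost its call without any of 6 arrays. The 14 are not separate measurements throughout: ATMG00080 and ATMG00090 had group means of 11.59 and 11.60 in cyp20-3 and both 11.22 in oastlB, and ATMG00170 and ATMG00620 had 10.26 and 9.78 each. Whether such rows share probes was not tested.

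Of 10 phosphate starvation genes, 3 were higher in oastlB, beside 2.55% of all genes, and 1 was without oastlB replicates 2 and 4. The acid phosphatase gene PAP17 (AT3G17790) read 6.99, 6.76, 6.95 and 6.47 in cyp20-3 and 7.72, 8.23, 7.79 and 7.35 in oastlB (-0.98 ± 0.17, adjusted p = 0.00015), the phosphate sensor gene SPX1 (AT5G20150) differed by -0.95 ± 0.19 (adjusted p = 0.00093) and SRG3 (AT3G02040) by -0.68 ± 0.16 (adjusted p = 0.006). All 3 were below WT in cyp20-3, by -0.87, -0.92 and -0.68, and none was called against WT in oastlB. Of 25 glucosinolate genes, 2 were higher in cyp20-3, the transporter gene GTR1 (AT3G47960, 0.38 ± 0.08) and the MYB regulator MYB51 (AT1G18570, 0.82 ± 0.24), and 4 higher in oastlB, led by the MYB regulators MYB34 (AT5G60890, -0.68 ± 0.15) and MYB122 (AT1G74080, -0.58 ± 0.14). MYB51 lost its call without any of 6 arrays, and MYB122 without oastlB replicate 2. The glucosinolate counts were 0 and 1 without oastlB replicates 2 and 4. The transporter gene YSL1 (AT4G24120, -0.42 ± 0.13) of 19 iron genes and the nitrate-responsive LBD39 (AT4G37540, 0.62 ± 0.17) of 10 nitrate genes were called, and lost their calls without any of 6 and 4 arrays. Of 12 shade and elongation genes, the growth repressor PAR1 (AT2G42870, 1.12 ± 0.18, adjusted p = 5.7e-05) was higher in cyp20-3 and the homeobox gene HAT2 (AT5G47370, -0.59 ± 0.14, adjusted p = 0.01) higher in oastlB, the latter lost without cyp20-3 replicate 2 (adjusted p = 0.069). YSL1, LBD39 and HAT2 were not called without oastlB replicates 2 and 4, and PAR1 was.

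Other genes separated the lines in normal light. AT2G14247 averaged 5.65 ± 0.66 in cyp20-3 and 3.65 ± 0.25 in oastlB (2.00 ± 0.39, adjusted p = 0.012). BHLH100 (AT2G41240), a factor of the iron deficiency response, averaged 5.46 ± 0.68 and 3.80 ± 0.42 (1.66 ± 0.36, adjusted p = 0.027). RVE2 (AT5G37260), a clock-related MYB factor, averaged 3.45 ± 0.38 and 2.19 ± 0.34 (1.25 ± 0.22, adjusted p = 0.0038). None of the 3 was called in high light, where they differed by 0.51, -0.17 and -0.11. With BHLH100, BTS (AT3G18290) and ORG1 (AT5G53450) made 3 of 19 iron genes higher in cyp20-3, beside 0.219% of all genes.

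Higher in oastlB in normal light were GPT2 (AT1G61800, -1.28 ± 0.26, adjusted p = 0.017), the plastid glucose-6-phosphate translocator, QQS (AT3G30720, -0.95 ± 0.20, adjusted p = 0.025), the nitrate reductase gene NIA2 (AT1G37130, -0.84 ± 0.10, adjusted p = 1.3e-05) and the glutathione transferase gene ERD9 (AT1G10370, -0.82 ± 0.18, adjusted p = 0.032). NIA2 averaged 7.75 ± 0.13 and 8.59 ± 0.08 there and was near-equal in high light (-0.04 ± 0.10), a difference in response of 0.79 (adjusted p = 0.0012). The normal-light calls of BHLH100, GPT2, QQS and ERD9 were lost without any of between 4 and 6 arrays, and that of AT2G14247 without cyp20-3 replicate 3 (adjusted p = 0.054). NIA2 and RVE2 kept their calls on leaving out any of the 8 arrays, but each lost it under 1 other setting.

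The largest differences in response outside the genes above were those of SDH3-1 (AT5G09600), a subunit of mitochondrial succinate dehydrogenase, at 3.33 (adjusted p = 0.033), and TOM7-2 (AT1G64220), of the outer mitochondrial translocase, at 2.55 (adjusted p = 0.0067). In both, cyp20-3 was above oastlB in high light (1.14 and 1.15) and below it in normal light (-2.19 and -1.41), and neither difference was called on its own. The SDH3-1 call was lost without any of 10 of the 16 arrays (adjusted p up to 0.09). That of BHLH100, at -1.83, was lost without any of 13 (adjusted p up to 0.13), as was that of AT4G33040, at -1.54 (adjusted p up to 0.11).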

How the data were processed

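Shoot RNA of 40 samples in 10 groups of 4 was read on Affymetrix arrays, 1 array a sample. Per the labels' protocols RNA was labelled as biotinylated cRNA. The deposited values are log2 intensities, which the submitters' processing notes describe as made with RMA. No source used here names the array type or annotation version. Arrays give no counting depth, and their number limits the precision.

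The values were used as deposited, with no filter. One limma model (limma 3.58.1, R 4.3.3) with a mean for each of the 10 groups was fitted to all 27826 genes and 40 arrays, which leaves 30 residual degrees of freedom. Contrasts were cyp20-3 minus oastlB in each light, the difference between these, and each line minus WT in high light. P-values were moderated, 2-sided and adjusted by Benjamini-Hochberg over all genes, and the fit was tested on simulated data. Symbols came from RefSeq's TAIR10.1 table, which matched 27241 loci.

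The members and the 41 gene lists were chosen with earlier results of these data known. Named genes are the 15 largest called, non-overlapping differences in each direction in high light, the 2 largest called in each direction in every list, every called cyclophilin, cysteine and sulfur gene, the member with the smallest p of a list with none called, both targeted genes, and the 5 largest called in each direction in normal light and in response. Other members given beside them, and AT3G62040, LRX3, EXL3, EXL5 and AGP16, fall outside this rule and were chosen after their values were seen. Alternatives were other scalings, prior settings, a brightness filter, a replicate block, the compared arrays alone and leaving out arrays. No sequences were used here.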

Additional observations from a re-analysis of the deposited data

Results flagged for a closer look

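Of the 216 groups of 4 arrays examined over the named genes, 15 held 1 array far from the other 3, and chance gives about 1 in 20. The most frequent array was oastlB replicate 2 in high light, which held 7 of them. It was high for HSP90.1 (9.49, others 7.24 to 7.45), AT5G48570 (10.5, others 8.08 to 8.42), HSP101 (8.79, others 6.37 to 6.55), HSP70 (11.7, others 9.77 to 10.03) and AT1G07400 (8.98, others 5.21 to 5.61). It was low for BCAT-2 (3.72, others 4.86 to 5.07) and AT4G33040 (4.51, others 5.35 to 5.52). In cyp20-3 in high light, SLAH3 was low on replicate 1 (8.45, others 9.22 to 9.34), MYC2 high on replicate 1 (5.93, others 5.55 to 5.60), AT4G33040 high on replicate 2 (4.58, others 4.00 to 4.04) and APX1 low on replicate 4 (8.34, others 8.38). CCA1 was low on oastlB replicate 3 in high light (5.13, others 5.69 to 5.79). In normal light, oastlB replicate 3 was high for ERD9 (6.16, others 5.46 to 5.52) and low for GolS2 (4.75, others 5.76 to 5.89), and replicate 4 was low for SDH3-1 (4.80, others 5.18 to 5.22).

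For 37 named genes the difference in light response between the lines was called by limma, 20 of them positive and 17 negative. These log2 differences, cyp20-3 minus oastlB, share the high-light arrays with the main comparison. Among the positive ones were EXO 2.71, DREB26 2.43, TCH4 2.59, WRKY18 2.63, DIN10 2.47, AT4G16563 2.37, EXLA1 2.35, SLAH3 2.30, AT1G02610 2.03 and TPS8 1.94. The other positive differences were AT1G50040 2.21, AT5G61590 2.11, ATPMEPCRB 1.21, AT1G80440 1.65, JAZ7 1.53, XTH33 1.34, ATMG01340 0.85, NIA2 0.79, SDH3-1 3.33 and TOM7-2 2.55. Among the negative ones were HSP90.1 -2.33, AT2G15020 -1.23, DIP2 -1.55, BBX31 -1.38, APX1 -0.40, GSTF6 -1.23, MYC2 -0.79, HSF4 -0.98 and HAI2 -1.33. The other negative differences were RD20 -1.45, LTI78 -1.18, LHCA3 -0.42, PAP17 -0.99, BHLH100 -1.83, RVE2 -1.36, GolS2 -1.65 and AT4G33040 -1.54.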

How the results depend on the processing

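Of the 112 named gene results, none of those called changed direction under any of the 26 settings in which it was recomputed. Not every result was run under every setting. APX1 in high light had 18, NIA2 in normal light 17 and the response of GolS2 all 26. For results that were not called, a change of sign was not counted. Of the 2043 recomputed values of all 112, 1751 were counted as staying on their side of the threshold, 284 lost the call and 8 gained it. In a fit on the compared arrays alone, high light gave 779 genes (458 higher in cyp20-3, 321 higher in oastlB), normal light 4 (3 and 1) and the difference in response 395; fewer arrays enter this fit. Without oastlB replicates 2 and 4 of high light, an alternative chosen after seeing the data, the counts were 624 in high light (370 and 254) and 319 for the response. Leaving out 1 array at a time gave 1027 to 1539 genes in high light (552 to 833 higher in cyp20-3, 475 to 706 higher in oastlB) and 36 to 72 in normal light (19 to 39 and 15 to 34), and 443 to 619 for the response. The low of 1027 and 552 came without cyp20-3 replicate 2. Restricting the fit to brighter genes gave 81 genes higher in oastlB in normal light. With the replicate number as a block the counts were 1615, 113 and 674. The deviations of same-numbered arrays correlated between -0.042 and 0.038, and those of differently numbered arrays between -0.064 and 0.0705. Whether the numbers pair the samples cannot be told from these values alone, and the labels do not say. Of the 83 named genes called in high light, 53 kept their call on leaving out any of the 8 arrays and 30 lost it for at least 1. The alternatives given for the evening clock genes in normal light, the mitochondrion-encoded genes and TCH3 were also added after seeing the data.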
